A study of Mus musculus with 12 samples.

Results

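The glutathione, thioredoxin and peroxidase genes were taken as the protein-coding rows whose symbol belongs to the Gst (classes alpha, kappa, mu, omega, pi, theta and zeta), Mgst, Gpx, Prdx or Txn families, together with Srxn1, Gclc, Gclm, Gsr and Gss. The rule found 62 genes among the 38087 with an Ensembl identifier, and 52 of them passed the filter on low counts. They were measured by sequencing messenger RNA from the colonic mucosa of 6 Sgo1-/+ and 6 wild type samples. The Sgo1-/+ samples carry 1 disrupted copy of the gene of shugoshin 1, which protects the cohesion of sister chromatids at centromeres, and the series asks how chromosome instability affects the colon. Every mouse, wild type included, received azoxymethane, a carcinogen of the colon, at 4 mg/kg and 2 times per week between week 8 and week 12 of age. Tissue was taken at 9 months. Nothing in the labels says that each sample came from its own animal, so a p-value here covers the spread among these samples, which may be technical.

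Glutathione is a small thiol that cells hold at high concentration. It is made in sequence by glutamate-cysteine ligase and glutathione synthetase, spent by transferases that attach it to reactive chemicals and by peroxidases that reduce peroxides, and returned to its reduced form by glutathione reductase. The thioredoxin system works in parallel: thioredoxin reductase reduces thioredoxin, which in turn reduces the peroxiredoxins. Many of these genes are induced by the transcription factor NRF2 through the antioxidant response element, and the colonic epithelium, exposed to luminal chemicals, expresses them strongly.

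Libraries held 5414150 to 9936818 counts. The targeted gene, listed as Sgol1, ran from 1.84 to 2.77 CPM in the Sgo1-/+ libraries, against 1.49 to 6.80 CPM in wild type, and its groups overlapped. The 4 most abundant mitochondrial-like rows took 42.2% of counts in Sgo1-/+ replicate 3, 46.5% in wild type replicate 3 and 43.7% in wild type replicate 5, and 14.8% to 27.8% in the other 9 libraries. Markers of absorptive colonocytes summed to 18480 to 24133 CPM in Sgo1-/+ and 19646 to 30024 CPM in wild type, and those of smooth muscle to 116 to 155 CPM and 138 to 151 CPM, so the libraries carried the epithelial signal that the mucosa label calls for. CPM stands for counts scaled to a common library size, here with TMM (trimmed mean of M-values) factors.

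The antioxidant element was looked for in the RefSeq promoters of these genes (build GRCm38.p6), because it is the sequence that the family is best known to share. The letters TGANNNNGC were searched on both strands of the 250 bases before each listed start. They include the narrower form TGACNNNGC. Of the 62 members 54 had a promoter in the table, and 27 of these, or 50%, held TGANNNNGC, against 38.7% of all 27025 genes. TGACNNNGC was found in 10 of the 54, or 18.5%, against 11.5% of all genes. The promoters of Srxn1 and Gstm2 are shown because these members had the smallest p in each direction in the comparison of genotypes. Capitals mark TGANNNNGC on either strand. The Srxn1 promoter is chr2:152105274-152105523 on the plus strand. Its last match, TGAGTCAGC, begins 45 bases before the start. The Gstm2 promoter is chr3:107986421-107986670 on the minus strand and holds no match, which says only that these letters are not in this window.
Srxn1: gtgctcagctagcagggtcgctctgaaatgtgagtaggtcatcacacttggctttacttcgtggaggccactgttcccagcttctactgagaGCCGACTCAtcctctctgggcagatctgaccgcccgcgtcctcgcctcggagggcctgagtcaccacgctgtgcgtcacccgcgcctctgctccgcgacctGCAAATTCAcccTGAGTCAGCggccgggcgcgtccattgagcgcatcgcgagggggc
Gstm2: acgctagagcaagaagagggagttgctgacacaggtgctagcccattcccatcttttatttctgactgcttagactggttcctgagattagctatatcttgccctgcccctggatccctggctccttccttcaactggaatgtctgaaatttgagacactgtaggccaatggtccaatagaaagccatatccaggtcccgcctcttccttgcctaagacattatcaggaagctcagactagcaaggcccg

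Short windows around TGACNNNGC (capitals) are given for Prdx1, Txnrd1 and Gclm, 3 members of different roles with high counts. All are on the plus strand, and in each the match lies on the opposite strand. The windows are chr4:116685451-116685489 for Prdx1, chr10:82859099-82859137 for Txnrd1 and chr3:122245408-122245446 for Gclm, and the matches begin 133, 92 and 134 bases before the start.
Prdx1: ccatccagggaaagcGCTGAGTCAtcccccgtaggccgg
Txnrd1: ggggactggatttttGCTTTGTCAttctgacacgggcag
Gclm: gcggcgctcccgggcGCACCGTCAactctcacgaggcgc

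Levels were first compared within the family. Per kilobase of exon, the most abundant member was Txn1, cytosolic thioredoxin, at 369 CPM per kilobase in Sgo1-/+ and 331 in wild type. Prdx6, a peroxiredoxin that uses glutathione rather than thioredoxin, was at 315 and 286, the microsomal transferase Mgst3 at 222 and 245, and Txnip, an inhibitor that binds thioredoxin, at 205 and 231 CPM per kilobase. Among cytosolic transferases Gstp1, Gsto1 and Gstm1 led, at 121, 105 and 102 CPM per kilobase in Sgo1-/+ and 133, 117 and 85.3 in wild type. At the other end of the tested members were Gsta3, at 1.38 and 1.09, and the mitochondrial thioredoxin reductase Txnrd2, at 1.31 CPM per kilobase in both genotypes. The symbols also took in genes of other functions, such as Txnl4a and Txnl4b, which encode proteins of the spliceosome, and Txndc5, a disulfide isomerase of the endoplasmic reticulum.

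**Figure D1:**
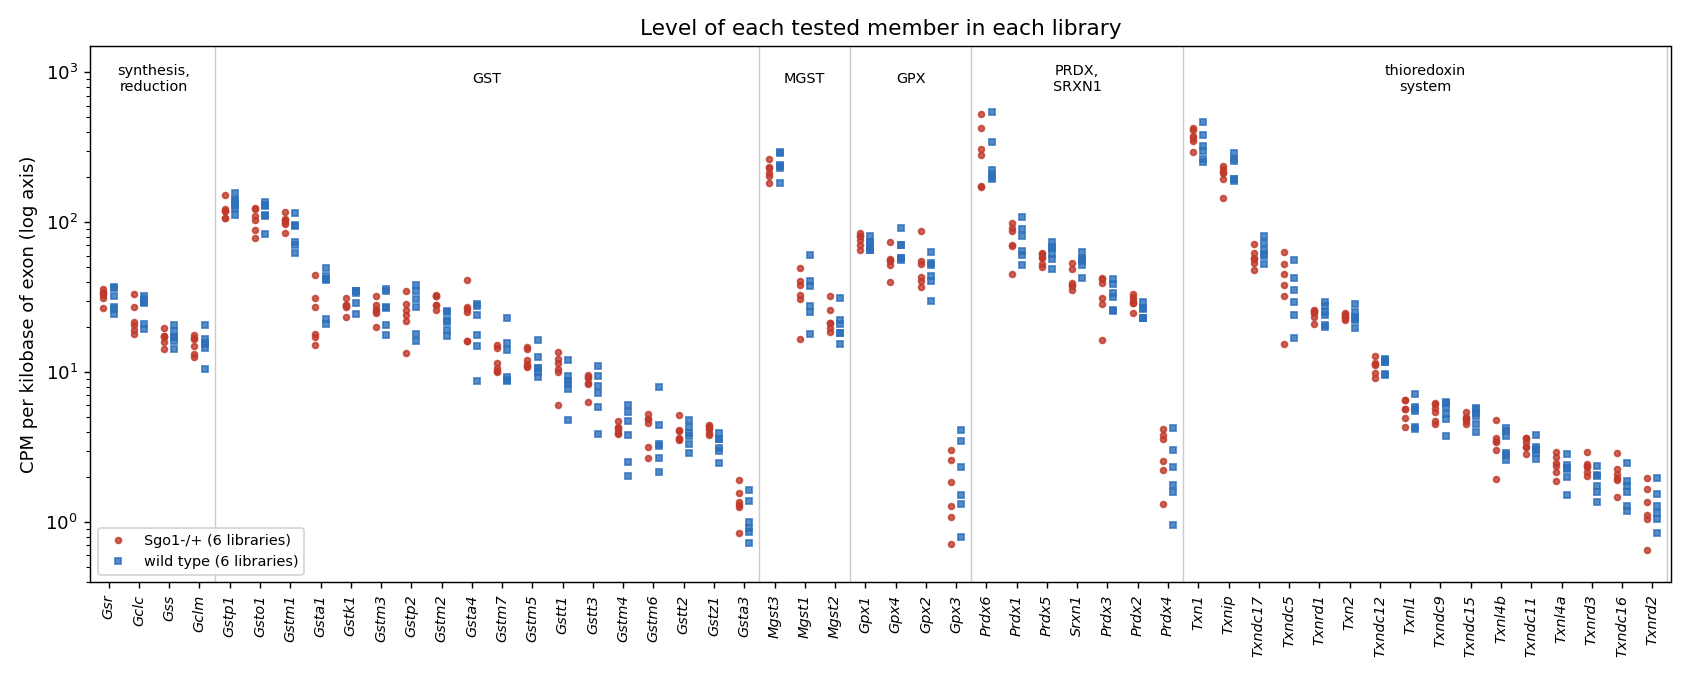
Level of each of the 52 tested members in each library, in CPM per kilobase of exon on a log axis, with Sgo1-/+ libraries as circles left of wild type libraries as squares. Members are ordered by mean level within each role, and the libraries of the genotypes overlap in every member shown except Gstm2.

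The 10 members that did not pass the filter had low counts in most libraries. Gstt4, Txndc2, Txndc8 and Gpx5 had at most 2 counts in any library, and Txndc2 and Txndc8 are known from sperm and Gpx5 from the epididymis. Gpx8 had at most 6 counts. Gsta2 averaged 0.589 CPM in Sgo1-/+ and 0.514 CPM in wild type, Gsto2 0.760 and 0.498 CPM, Gpx7 0.742 and 0.958 CPM, and Prdx6b 0.756 and 0.926 CPM. Gpx6 reached 2.31 CPM in Sgo1-/+ and 9.06 CPM in wild type, where replicate 5 alone, with 34 counts, stood above 1.49 CPM.

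The genotypes were then compared for each gene of the family. By edgeR's quasi-likelihood test with Benjamini-Hochberg adjustment over all 13889 genes, 0 of the 52 tested members were called, and adjusted p-values ran from 0.491 to 0.993. No gene of the whole table was called in edgeR (0%), while DESeq2 called 30 genes, or 0.216%, none of them a member, the smallest adjusted p of a member being 0.0874 for Gstm2. At an unadjusted p under 0.05 edgeR gave 3 members higher in Sgo1-/+ (Gstm2, Gstz1 and Prdx2) and 1 lower (Srxn1). These are 4 of 52, or 7.69%, beside 9.04% of all genes tested, with 4.31% higher and 4.73% lower. The share was therefore near the background and is no result about the family.

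Signs were mixed as well. Log2 changes were above 0 in 29 members and below 0 in 23, with a median of 0.022, beside 49.0% above 0 and a median of -0.0057 over all genes tested. With library totals in place of TMM, 50 of the 52 were above 0, with a median of 0.33, but that scaling moved the median of all genes to 0.31. The intervals were narrow for this table. The 95% interval of the log2 change lay within 1 log2 unit of 0 for 49 of the 52 members, or 94.2%, against 75.2% of all genes, and within 0.5 for 26. The exceptions to the wider bound were Gsta1 (-1.16 to 0.08), Gpx3 (-1.25 to 0.63) and Prdx4 (-0.42 to 1.08). The members and all genes were not matched for level here, so these shares do not show a family more stable than genes of like level. In bulk tissue, fewer cells of a type and less RNA per cell cannot be told apart, here and in what follows.

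**Figure D2:**
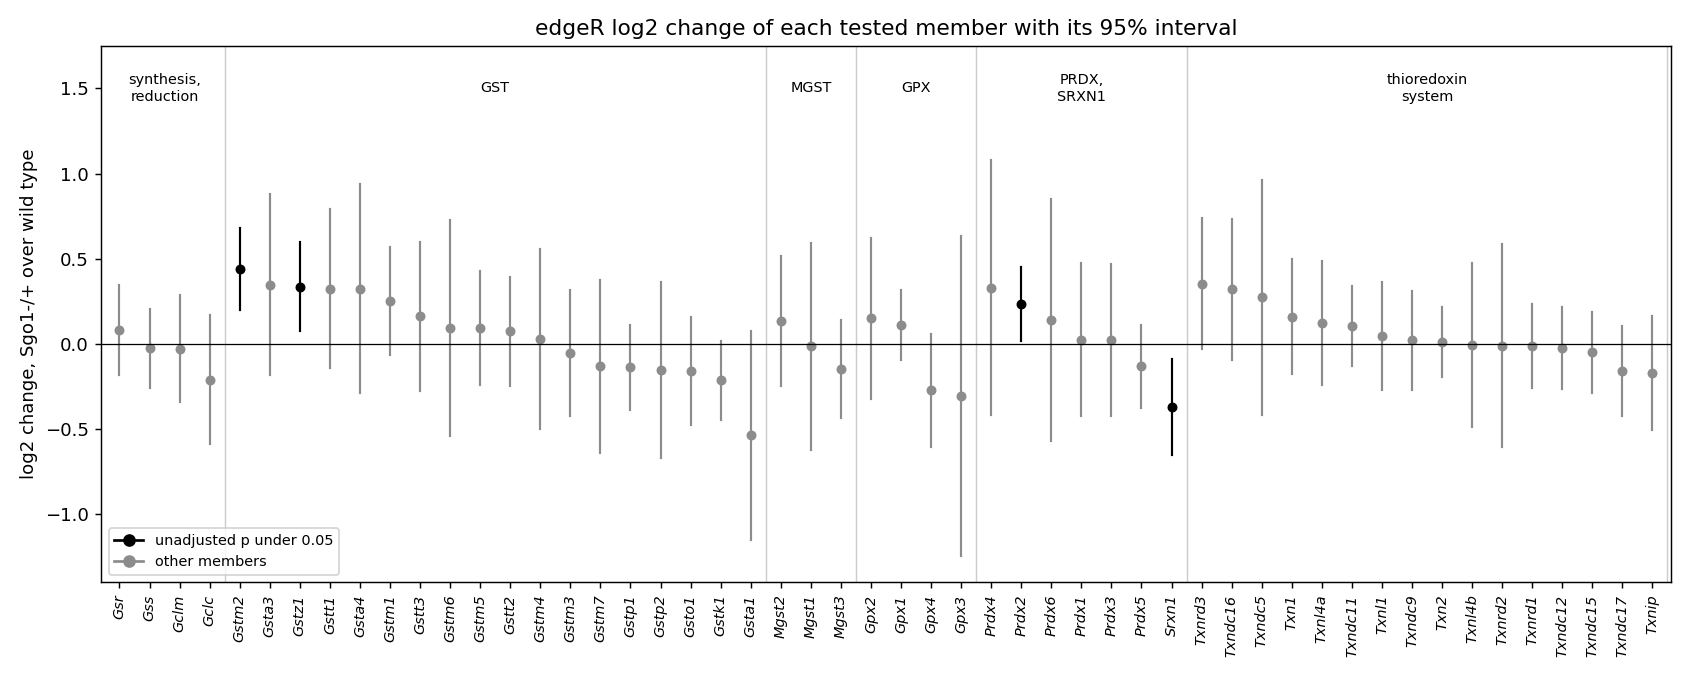
edgeR log2 change of each of the 52 tested members, Sgo1-/+ over wild type, with its 95% interval and grouped by role. The 4 members in black (Gstm2, Gstz1, Prdx2 and Srxn1) had an unadjusted p under 0.05 and 0 members passed after adjustment over all genes.

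Glutathione synthesis and reduction were measured with 4 genes, 1 of them with a log2 change above 0. Gss, glutathione synthetase, had 84.4, 102 and 117 CPM (lowest, median and highest) in Sgo1-/+ and 85.0, 101 and 122 CPM in wild type, so the groups covered the same range. Gclm, the modifier subunit of glutamate-cysteine ligase, had 79.9, 99.3 and 111 CPM in Sgo1-/+ and 65.9, 98.4 and 130 CPM in wild type. Its log2 change was -0.03 ± 0.15 (SE), and that of Gss was -0.03 ± 0.11, each with an n of 6 libraries per genotype, as for every change given here. Gclc, the catalytic subunit, averaged 87.7 ± 22.2 CPM in Sgo1-/+ and 102 ± 20.5 CPM in wild type (SD, n = 6 each), and the reductase Gsr 89.4 ± 8.75 and 84.5 ± 14.8 CPM. The 95% intervals of the 4 genes lay between -0.59 and 0.35.

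Of 21 glutathione S-transferase genes, counted without the microsomal ones, 18 were tested, 11 with log2 changes above 0. At an unadjusted p under 0.05 there were 2 higher and 0 lower, beside 4.31% higher and 4.73% lower of all genes tested. Gstm2 (ENSMUSG00000040562, chromosome 3, positions 107981702 to 107986453 in build mm10), a mu-class transferase, had 43.9, 50.4 and 54.9 CPM in Sgo1-/+ and 29.3, 37.0 and 43.3 CPM in wild type. All 6 Sgo1-/+ libraries were above all 6 wild type libraries, by a narrow margin. This held for 1 of the 52 members and, in either direction, for 0.346% of all genes tested. The log2 change of Gstm2 was 0.44 ± 0.11 (edgeR unadjusted p = 0.00172, adjusted p = 0.491). It was 0.44 among the libraries whose column names lack a suffix (4 per genotype) and 0.45 among those that carry it (2 per genotype), and ran from 0.38 to 0.50 when each library was left out in turn.

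The 7 Gstm genes lie side by side on chromosome 3, between positions 107895821 and 108044894. Gstm1 averaged 149.9 ± 15.6 CPM in Sgo1-/+ and 126 ± 29.3 CPM in wild type (log2 change 0.25 ± 0.15, edgeR unadjusted p = 0.109), and Gstm5 15.8 ± 2.11 and 14.9 ± 3.38 CPM. For Gstm1 and Gstm5, as for Gstm2, 6 of 6 Sgo1-/+ libraries were above the wild type median, but the groups of Gstm1 and Gstm5 overlapped. Gstm5 met this count with a log2 change of 0.09 ± 0.16 (edgeR unadjusted p = 0.558), so the count alone says little. The share of all genes that meet it is not given here. Gstm3, Gstm4, Gstm6 and Gstm7 had log2 changes of -0.05, 0.02, 0.09 and -0.13. Words of 50 bases that also occur in the transcripts of another gene made up 18.9% of those of Gstm1, 28.8% of Gstm3 and 5.655% of Gstm2 in GENCODE M21. The copies that share most of them, Gstm2-ps1 for Gstm1 and Gm8834 for Gstm3, have no row under those symbols among the genes kept. How reads that match both were counted is not known, so counts of Gstm1 and Gstm3 are uncertain.

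Gstz1 (ENSMUSG00000021033, chromosome 12, positions 87147707 to 87164721) is the zeta-class enzyme that isomerises maleylacetoacetate in tyrosine breakdown. It had 19.3, 21.3 and 22.6 CPM in Sgo1-/+ and 12.6, 17.1 and 20.0 CPM in wild type. Every Sgo1-/+ library was above the wild type median, and only wild type replicate 5, at 20.0 CPM, reached into their range. The log2 change was 0.34 ± 0.12 (edgeR unadjusted p = 0.0162, adjusted p = 0.527), at 0.35 without and 0.33 with the name suffix. Pomt2 overlaps Gstz1 on the opposite strand, and since no source used here gives the counting's use of strand, reads of the overlap cannot be told apart. The same holds for Gclm, Gss, Gpx2, Gsto1, Gstm5, Prdx2, Prdx5, Txnip, Txndc11, Txndc12, Txndc16 and Txnrd2, each of which overlaps a row on the opposite strand. Gstm3 and Gstm6 overlap each other on the same strand, as do Gstt3 and Gm20441, and Txnl4a and Gm16286. Gm20441 holds the largest part of the 12.5% of Gstt3 words found elsewhere, and Gm16286 that of the 12.6% of Txnl4a words. Gclm, Gsr and Txndc12 also overlap a row on the same strand, so the counts of all these members are uncertain.

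Gstk1 (ENSMUSG00000029864, chromosome 6, positions 42245935 to 42250441), the kappa-class enzyme of mitochondria and peroxisomes, had 34.4, 40.8 and 45.7 CPM in Sgo1-/+ and 36.1, 50.3 and 51.2 CPM in wild type. The 6 Sgo1-/+ values were below the wild type median. The log2 change of -0.22 ± 0.11 did not pass (edgeR unadjusted p = 0.0672). Within libraries that lack the name suffix it was -0.31, and within those that carry it -0.019.

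Gsta1 (ENSMUSG00000074183, chromosome 9, positions 78230656 to 78242684), an alpha-class transferase, had the most negative estimate of the family. It had 14.6, 21.7 and 42.5 CPM in Sgo1-/+ and 20.0, 39.8 and 47.6 CPM in wild type. In wild type, replicates 5 and 6 were at 20.0 and 21.5 CPM and replicates 1 to 4 at 39.4 to 47.6 CPM. Sgo1-/+ libraries had no such clear break. Replicates 2, 4 and 5 were at 14.6 to 17.3 CPM, replicates 6 and 1 at 26.1 and 29.7 CPM, and replicate 3 at 42.5 CPM. The log2 change of -0.54 ± 0.29 did not pass (edgeR unadjusted p = 0.0814) and was -0.09 with the mean level of the distal colon markers as a covariate. Of the 7 markers tested 5 had log2 changes above 0 themselves, so that fit can also remove part of the genotype difference. Of its 50-base words 90.5% also occur in another gene, mostly the predicted gene Gm3776, so its counts are uncertain. Gsta4, which handles products of lipid peroxidation, averaged 32.1 ± 11.7 CPM in Sgo1-/+ and 25.6 ± 9.77 CPM in wild type, and Gsta3 5.98 ± 1.53 and 4.72 ± 1.51 CPM.

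The most abundant cytosolic transferases differed little. Gsto1, the omega-class thioltransferase, had 159, 216 and 253 CPM in Sgo1-/+ and 170.1, 244 and 275 CPM in wild type, a log2 change of -0.16 ± 0.15. Gstp1, the pi-class enzyme, had 164, 184 and 236 CPM in Sgo1-/+ and 172, 207 and 241 CPM in wild type, a change of -0.14 ± 0.12. Its neighbour Gstp2 averaged 27.6 ± 7.95 and 30.7 ± 9.99 CPM. Gstp1 shared 33.7% of its words and Gstp2 54.3%, chiefly with each other, so the division of reads between them is uncertain. The theta-class genes Gstt1, Gstt2 and Gstt3 averaged 16.3, 16.8 and 32.7 CPM in Sgo1-/+ and 12.97, 15.9 and 29.1 CPM in wild type, with log2 changes of 0.32, 0.07 and 0.16.

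All 3 microsomal transferases, membrane proteins with transferase and peroxidase activity, were tested. Mgst3 had 199, 244 and 292 CPM in Sgo1-/+ and 199.7, 262 and 322 CPM in wild type, a log2 change of -0.15 ± 0.13. Mgst2 had 68.5, 78.9 and 118 CPM in Sgo1-/+ and 56.7, 72.7 and 116 CPM in wild type, a change of 0.13 ± 0.18. Mgst1 averaged 69.7 ± 22.1 and 70.4 ± 30.3 CPM, a change of -0.02 ± 0.28. The groups of each gene overlapped over most of their range.

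Of 8 glutathione peroxidase genes 4 were tested, and all 4 encode selenoproteins. Gpx2, the peroxidase typical of gut epithelium, had 119, 155 and 280 CPM in Sgo1-/+ and 96.7, 155 and 205 CPM in wild type. The medians differed by less than the spread within a genotype, and Sgo1-/+ replicate 3 alone was above the highest wild type library. Gpx1, the widespread cytosolic enzyme, had 94.5, 113 and 122 CPM in Sgo1-/+ and 93.5, 101 and 116 CPM in wild type, a log2 change of 0.11 ± 0.10. It was the least variable member, with a 1.30-fold distance between the highest and lowest of the 12 libraries. Gpx4, which reduces lipid peroxides within membranes, averaged 96.0 ± 18.9 CPM in Sgo1-/+ and 116 ± 23.1 CPM in wild type (log2 change -0.27 ± 0.16, edgeR unadjusted p = 0.0988), and 34.7% of its words also occur in another gene, mostly the pseudogene Gpx4-ps2. Gpx3, the secreted form, averaged 3.19 ± 1.65 and 4.09 ± 2.36 CPM.

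Among the peroxiredoxins, peroxidases that act through a reactive cysteine, 5 of 6 tested genes had log2 changes above 0. Prdx2 (ENSMUSG00000005161, chromosome 8, positions 84969587 to 84974834) had 76.0, 90.9 and 102 CPM in Sgo1-/+ and 69.8, 75.5 and 89.3 CPM in wild type. Every Sgo1-/+ library was above the wild type median, and the ranges overlapped between 76.0 and 89.3 CPM. The log2 change was 0.24 ± 0.10 (edgeR unadjusted p = 0.0358, adjusted p = 0.536), at 0.14 without and 0.43 with the name suffix; Rnaseh2a is the row that overlaps Prdx2. Prdx1 had 137, 240.3 and 302 CPM in Sgo1-/+ and 158, 222 and 328 CPM in wild type, a change of 0.02 ± 0.21. Prdx3 of mitochondria averaged 49.3 and 48.7 CPM, Prdx4 of the endoplasmic reticulum 6.21 and 4.89 CPM, and Prdx5, found in several compartments, 123 and 135 CPM. For Prdx5 6 of 6 Sgo1-/+ libraries were below the wild type median, with overlapping groups.

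Srxn1 (ENSMUSG00000032802, chromosome 2, positions 152105516 to 152111376) encodes sulfiredoxin, which restores peroxiredoxins whose cysteine has been over-oxidised, and is a known target of NRF2 in mice. It had 99.4, 109 and 151 CPM in Sgo1-/+ and 119, 158 and 179 CPM in wild type. All 6 Sgo1-/+ values were below the wild type median, and Sgo1-/+ replicates 1 and 3, at 138 and 151 CPM, lay within the wild type range. The log2 change was -0.37 ± 0.13 (edgeR unadjusted p = 0.0137, adjusted p = 0.524), at -0.27 without and -0.57 with the name suffix. It was -0.23 with the distal colon markers, which are partly tied to genotype, as a covariate. With library totals in place of TMM it was -0.07, where the median of all genes was at 0.31.

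**Figure D3:**
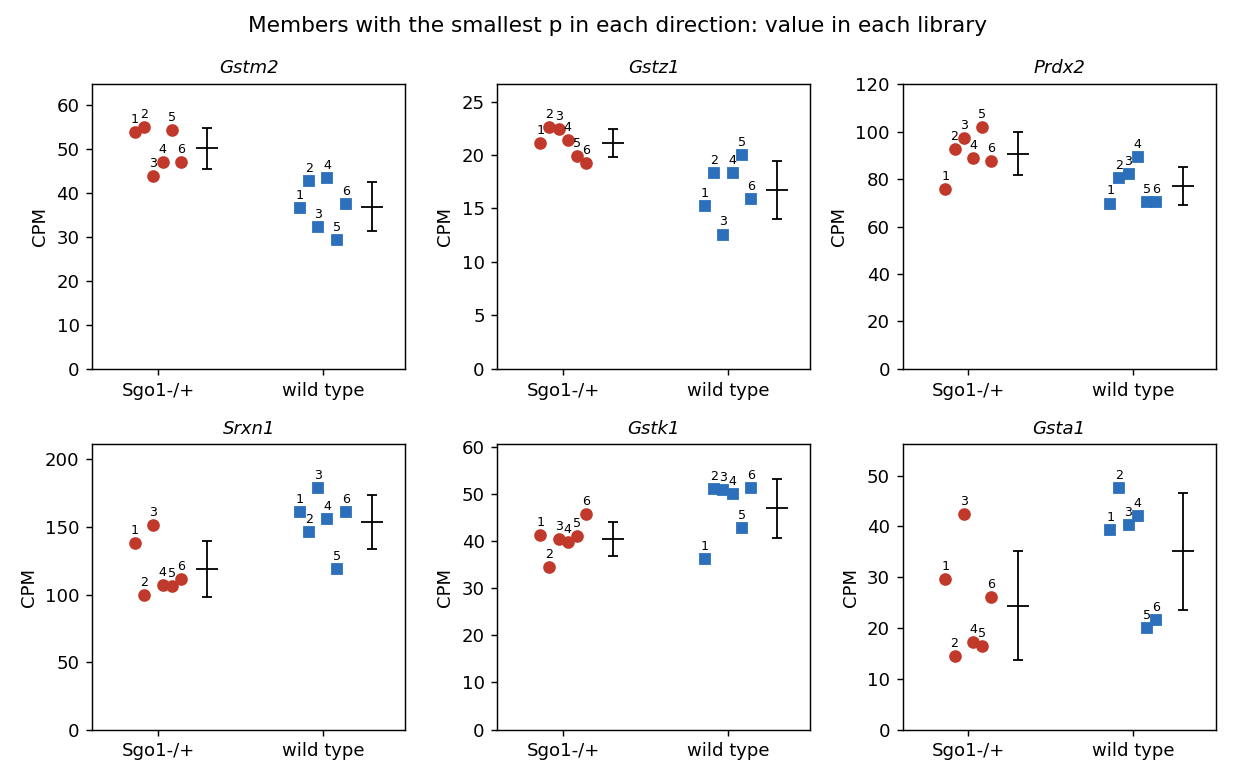
CPM in each library for the 3 members with the smallest p in each direction, Sgo1-/+ left of wild type, with digits for replicates and a bar for the mean ± SD of 6 libraries. Gstm2 is the member whose groups do not overlap (43.9 to 54.9 CPM in Sgo1-/+, 29.3 to 43.3 CPM in wild type), while Gsta1 varies widely within each genotype.

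Prdx6 had the highest mean count of the family and varied far more between libraries than between genotypes. Sgo1-/+ replicate 2 had 2537 CPM, Sgo1-/+ replicate 4 had 2053 CPM, and the other 4 Sgo1-/+ libraries had 829 to 1472 CPM. In wild type it was at 2630 CPM in replicate 6, at 1641 CPM in replicate 5 and at 936 to 1077 CPM in the other 4. The medians were 1415 CPM in Sgo1-/+ and 1040 CPM in wild type, and the log2 change was 0.14 ± 0.33 (edgeR unadjusted p = 0.676). It was 0.56 among the 8 libraries without the name suffix and -0.66 among the 4 with it. Within genotypes the SD of log2 CPM was 0.63 for Prdx6, against a median of 0.26 for the members and 0.35 for all genes tested. Of 65 genes within 2-fold of its level, 78.5% had a smaller SD. Other members were as variable: the SD was 0.78 for Gpx3, 0.67 for Txndc5, 0.66 for Prdx4, 0.58 for Gsta4, 0.57 for Mgst1 and 0.56 for Gsta1. At their own levels, 94.4% of genes had a smaller SD than Txndc5, 93.3% than Mgst1, 91.6% than Gsta4, 91.0% than Gsta1 and 84.7% than Gpx2.

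The homeobox gene Hoxb13, a marker of the distal colon, also differed between libraries. Sgo1-/+ replicates 2, 4 and 5 had 187, 142 and 140.2 CPM, and the other 3 Sgo1-/+ libraries 25.7 to 47.4 CPM. Wild type had 23.1 to 65.9 CPM, where replicates 5 and 6 had the highest values, at 65.9 and 64.4 CPM, close to replicate 4 at 58.4 CPM. The 3 highest Sgo1-/+ libraries for Hoxb13 were thus the 3 highest for Prdx6 and the 3 lowest for Gsta1, and the 2 highest wild type libraries for Hoxb13 were the 2 highest for Prdx6 and the 2 lowest for Gsta1. Wild type replicate 4, however, was at 1003 CPM for Prdx6 and 42.1 CPM for Gsta1. For Prdx6, Sgo1-/+ replicate 5 at 1472 CPM was close to Sgo1-/+ replicate 3 at 1358 CPM, where Hoxb13 was at 35.1 CPM. Wild type replicate 6 had the highest Prdx6 of all 12 libraries, at 2630 CPM, with Hoxb13 at 64.4 CPM. Another distal colon marker, Insl5, was at 39.4 to 50.2 CPM in Sgo1-/+ replicates 2, 4 and 5 and at 8.63 to 24.3 CPM in the other 3. In wild type replicate 6, the highest wild type library for Prdx6, Insl5 was at 6.64 CPM, its lowest value in wild type. Of the 7 distal colon markers tested 5 had log2 changes above 0, with a median of 0.96, and their summed level ran from 128 to 442 CPM in Sgo1-/+ and from 119 to 234 CPM in wild type. The largest changes were those of Hoxa11 (2.18 ± 0.35), Insl5 (1.42 ± 0.41) and Hoxa13 (1.13 ± 0.33). The part of these markers in the values of Prdx6 and Gsta1 was not tested beyond the covariate, with which Prdx6 was at -0.45. That covariate is the mean over markers that differ in this way, so it is partly tied to genotype. A shift under it cannot be told apart from a removal of genotype difference.

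**Figure D4:**
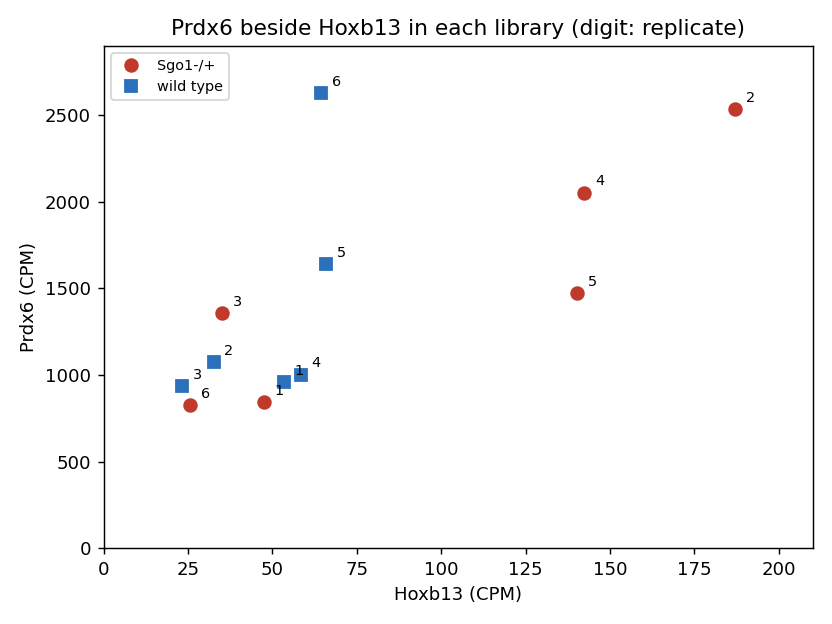
Prdx6 against Hoxb13 in CPM, 1 point per library, circles for Sgo1-/+ and squares for wild type, with digits for replicates. Sgo1-/+ replicates 2, 4 and 5 are the highest of their genotype for both genes, as are wild type replicates 5 and 6. For Prdx6, Sgo1-/+ replicates 5 and 3 are close, at 1472 and 1358 CPM.

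The thioredoxin system had 16 of 18 genes tested, 9 with log2 changes above 0 and 0 with an unadjusted p under 0.05. Txn1 had 308, 388 and 448 CPM in Sgo1-/+ and 264, 328 and 487 CPM in wild type, a log2 change of 0.16 ± 0.16. Txnip had 455, 671 and 736 CPM in Sgo1-/+ and 590, 705 and 909 CPM in wild type, a change of -0.17 ± 0.15. Txn2, the mitochondrial thioredoxin, averaged 99.7 ± 3.70 and 99.0 ± 12.5 CPM, and Txnrd1, the cytosolic reductase, 172 ± 12.9 and 174 ± 26.8 CPM, so that for these genes the means differed by less than the SD. Txnrd3, a reductase known for its expression in testis, averaged 6.75 ± 0.88 CPM in Sgo1-/+ and 5.26 ± 1.02 CPM in wild type (log2 change 0.35 ± 0.18, edgeR unadjusted p = 0.0679), with 6 of 6 Sgo1-/+ libraries above the wild type median. Txnrd2 averaged 5.74 and 5.76 CPM.

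The thioredoxin-domain genes, several of which act in protein folding, had log2 changes of -0.16 to 0.32, each with an interval that held 0. Txndc5 averaged 185 ± 75.0 CPM in Sgo1-/+ and 153 ± 62.8 CPM in wild type, Txndc16 24.3 ± 5.48 and 19.6 ± 5.37 CPM, and Txndc17 77.4 ± 10.6 and 86.4 ± 13.2 CPM, with log2 changes of 0.27, 0.32 and -0.16. Txndc9, Txndc11, Txndc12 and Txndc15 had changes of 0.02, 0.10, -0.03 and -0.05, and Txnl1, Txnl4a and Txnl4b of 0.04, 0.12 and -0.01.

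Some members differed between libraries beside the share of mitochondrial-like rows, whose part in their values was not tested. In the 3 libraries richest in mitochondrial-like rows (Sgo1-/+ replicate 3 and wild type replicates 3 and 5), 10 of the 52 members, or 19.2%, were lower than in each of the other 9 libraries, beside 8.91% of all genes tested, and 0 members were higher than in all of the others, beside 10.2%. These 10 were Gstm3, Gstp2, Gstt3, Mgst1, Prdx1, Prdx3, Txndc5, Txnip, Txnl1 and Txnrd1. Txndc5 was at 68.8 to 107 CPM in the 3 libraries and at 133 to 285 CPM in the other 9, and Mgst1 at 33.7 to 50.4 and 56.1 to 122 CPM. The same 3 libraries had the lowest totals, at 5414150 to 6381911 counts, with wild type replicate 1 close at 6413772. Markers of enteric neurons and glia summed to 46.0 to 76.0 CPM in them and 7.62 to 32.8 CPM in the other 9. Enteroendocrine markers were lower, at 247 to 374 and 400 to 592 CPM. Depth, cell content and the mitochondrial-like share cannot be told apart here. Without the 3 libraries the comparison of genotypes gave 3 members higher and 2 lower at an unadjusted p under 0.05 and again 0 called, with Gstm2 at 0.37, Srxn1 at -0.46 and Gsta1 at -0.84.

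**Figure D5:**
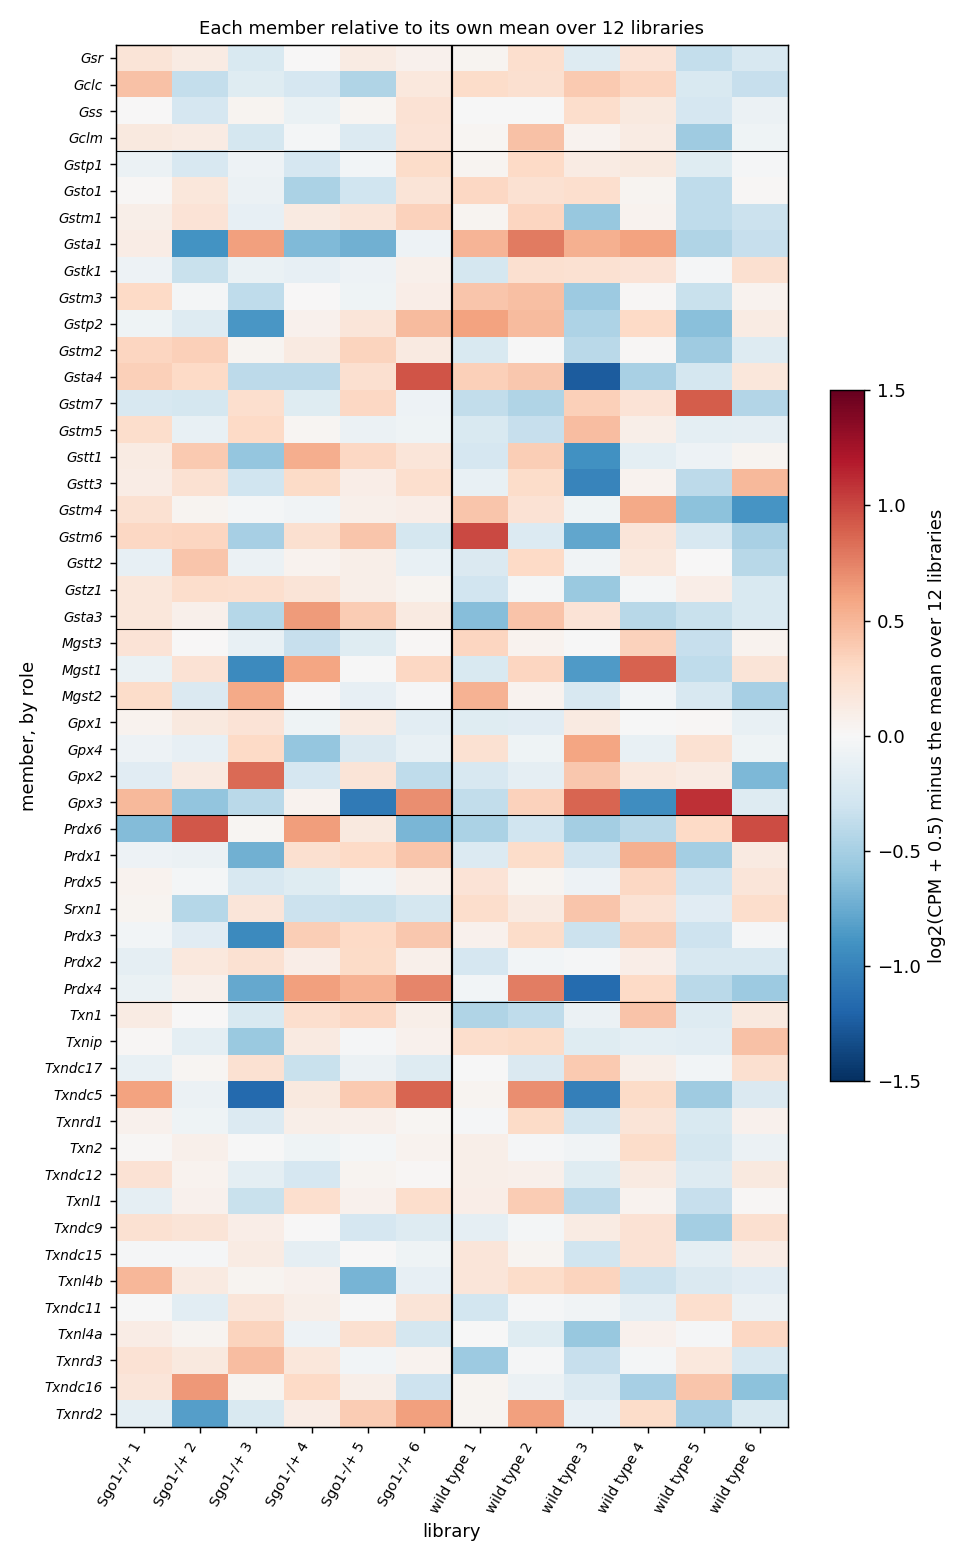
Each tested member's log2(CPM + 0.5) relative to its own mean over the 12 libraries, with Sgo1-/+ libraries left of wild type and members grouped by role. Sgo1-/+ replicate 3 and wild type replicates 3 and 5 show low Txndc5, Mgst1 and Prdx1, and Prdx6 is high in Sgo1-/+ replicates 2 and 4 and wild type replicate 6.

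Genes of adjoining pathways were set beside the family. Of 29 tested genes of the NRF2 axis and its targets outside the family, 11 had log2 changes above 0, with a median of -0.08. At an unadjusted p under 0.05 there were 1 higher and 2 lower. Over all genes tested 4.31% were higher and 4.73% lower at that p, for this list and the next. Fth1, the heavy chain of ferritin, averaged 2307 ± 284 CPM in Sgo1-/+ and 3049 ± 497 CPM in wild type (log2 change -0.40 ± 0.15), and Osgin1 18.2 ± 4.93 and 25.0 ± 4.47 CPM (-0.47 ± 0.19). The list of genes that supply NADPH, which both reductases use, had 16 tested members, 1 of them higher at that p. Aldh1l1, a folate enzyme that yields NADPH, averaged 43.5 ± 20.3 CPM in Sgo1-/+ and 18.9 ± 4.79 CPM in wild type (1.204 ± 0.30), and Mthfd1 22.6 ± 6.70 and 14.98 ± 7.72 CPM (0.58 ± 0.32).

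Of 31 tested genes for glutathione precursors, turnover and glutaredoxins, 3 were higher and 3 lower at an unadjusted p under 0.05, where 4.31% of all genes tested were higher and 4.73% lower, and the median log2 change was 0.03. Slc1a5, a glutamine transporter, averaged 98.0 ± 20.4 CPM in Sgo1-/+ and 67.6 ± 11.4 CPM in wild type (0.54 ± 0.15). Ggt1, which cleaves glutathione outside the cell, averaged 18.9 ± 7.69 and 36.7 ± 13.6 CPM (-0.97 ± 0.30). Of 18 other antioxidant enzymes, superoxide dismutases and catalase among them, 4 had changes above 0 and 0 had an unadjusted p under 0.05; Msra was at -0.20 ± 0.11 and Sesn1 at -0.36 ± 0.22. Of 18 genes of selenoprotein synthesis and other selenoproteins 1 was lower at that p, the deiodinase Dio1, at 96.2 ± 12.2 and 116 ± 13.6 CPM (-0.26 ± 0.11), and Sepp1, the selenium carrier, was at -0.46 ± 0.22. Genes of xenobiotic metabolism outside the family had 33 of 41 changes below 0 and a median of -0.24, with 1 higher and 6 lower at an unadjusted p under 0.05. Over all genes tested 49.0% of changes were above 0, the median was -0.0057, and 9.04% had such a p. The carboxylesterases Ces2a and Ces2e were at -0.61 ± 0.16 and -0.51 ± 0.14. Beside them, 17 of 18 absorptive colonocyte markers had changes below 0 (median -0.22), with 0 higher and 2 lower at an unadjusted p under 0.05. Of 14 markers of the crypt base and proliferation 13 had changes above 0 (median 0.52), with 8 higher and 1 lower at that p. The part of these markers in the lists was not tested. In edgeR 0 genes of these lists passed after adjustment over all genes, with adjusted p-values of 0.491 or above.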

How the data were processed

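Messenger RNA of colonic mucosa was sequenced on an Illumina MiSeq from TruSeq libraries, per the labels' protocols. Build mm10 and DESeq are named in the submitters' processing notes. No source used here names the aligner or the counter, or says whether counting used strand. The authors deposited expected counts per gene (69.6% of values above 0 were not whole, at a tolerance of 0) and log2 normalized values, which were not used for tests.

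Expected counts were rounded to integers. Left out were the 505 of 38592 rows without an Ensembl identifier (1.79% to 5.40% of counts). No libraries were identical, and pairs of replicates differed by a chi-square per degree of freedom of 14.9 or more. The test was that of edgeR 4.0.16, run in R 4.3.3 (TMM, filterByExpr at a minimum count of 10 and total of 15, glmQLFit and glmQLFTest), with adjustment over 13889 genes at a threshold of 0.05. The SE is the absolute log2 change divided by the square root of F, and 95% intervals use the fitted degrees of freedom. Exon lengths are unions over GENCODE M21 (GRCm38), found for 62 members. DESeq2 1.42.0 and limma-voom (limma 3.58.1) were alternatives. This test was first tried on simulated counts. Values per library are given for the 3 members with the smallest p in each direction, the 2 of highest mean CPM per role, and Srxn1. Of each list the 2 genes with the smallest p are named. Other members, Hoxb13 and the library patterns were described after their values were seen. Members and lists were chosen with earlier results of these data known.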

Additional observations from a re-analysis of the deposited data

Results flagged for a closer look

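Among 36 groups of 6 libraries, those of the 18 members described by library in each genotype, 2 held a library far from the rest by Dixon's ratio of gap to range, and chance flags about 1 in 20 groups. Gstp1 was at 236 CPM in Sgo1-/+ replicate 6, next to 189 CPM in the nearest other Sgo1-/+ library, a ratio of 0.65. Gpx2 was at 280 CPM in Sgo1-/+ replicate 3, next to 177 CPM, a ratio of 0.636; this library had 42.2% of its counts in mitochondrial-like rows, and the part of that share in the value was not tested.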

How the results depend on the processing

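The count of members called at an adjusted p of 0.05 was 0 under all 24 alternatives. At an unadjusted p under 0.05, members higher in Sgo1-/+ numbered 3 and members lower 1; these were 9 and 0 with library totals, 1 and 0 with the distal colon markers as a covariate, 1 higher among libraries without the name suffix and 5 among those with it. There were 2 lower with limma-voom, with no filter on low counts and without the 3 libraries richest in mitochondrial-like rows. Leaving out each library gave 2 to 4 higher, 1 to 3 lower (3 without Sgo1-/+ replicate 3; 2 without wild type replicates 1, 5 and 6), 24 to 36 members above 0 and medians of -0.04 to 0.09, with 0 called each time. With library totals 50 members were above 0 and the median was 0.33. With the replicate block there were 4 higher and 2 lower; same-numbered libraries had correlations of deviations from -0.30 to 0.45, so the samples share only a number.

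Some log2 changes of the 18 members described by library changed sign. With library totals, which shift the median of all genes to 0.31, every value that did so lay below that median: 0.11 for Gstk1, 0.14 for Gsto1, 0.17 for Gstp1, 0.15 for Mgst3, 0.14 for Txnip, 0.30 for Gss and 0.27 for Gclm. With no filter Gss was at 0.0042 and Gclm at 0.00041. Prdx1 was at -0.18 without the name suffix, and with it Gstp1 was at 0.11, Mgst2 at -0.18, Prdx6 at -0.66, Gss at 0.16 and Gclm at 0.029. Without the 3 libraries richest in mitochondrial-like rows Mgst2 was at -0.055 and Prdx1 at -0.024. With the distal covariate Gstp1 was at 0.0064, Prdx6 at -0.45, Gss at 0.10 and Gclm at 0.11. Without single libraries Gclm ran from -0.12 to 0.089, Gpx2 from -0.051 to 0.26, Gss from -0.075 to 0.032, Prdx1 from -0.065 to 0.15 and Prdx6 from -0.056 to 0.44. The cause was not tested beyond what each alternative changes by construction. Depth limits the members left out by the filter and Gpx3, which had 10 to 60 counts.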
